A study of Mus musculus with 12 samples.

Results

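The collagen chain genes are the mouse genes named Col, a number, the letter a and a second number, such as Col2a1. They were chosen by that name alone, which gave 41 genes and 91 probes of the 19057 named genes and 45281 probes on an Illumina MouseWG-6 v2.0 array. Each array held total RNA of 1 cell type from 1 mouse. Round spermatids, the haploid cells that follow meiosis, came from 3 Baz1a-/- mice (mutant spermatids 1 to 3) and 3 Baz1a+/- mice (control spermatids 1 to 3). Pachytene and diplotene spermatocytes, which are in meiotic prophase, came from the same Baz1a-/- mice (mutant spermatocytes) and Baz1a+/- mice (control spermatocytes). All were adult males of 2 to 6 months on a mixed C57BL/6J and FVB/NJ background, and the controls also carried 1 mutant allele. BAZ1A is the accessory subunit of the ACF and CHRAC chromatin remodelers, and the comparison of genotypes asked whether RNA levels change without it. The array of mutant spermatocytes 1 was left out of the tests because its submitters inferred that many round spermatids were in it, so mutant spermatocytes have 2 arrays.

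Collagens are secreted or membrane-bound proteins of the extracellular matrix whose chains wind around each other into a rigid helix. Fibrillar collagens form the cables of connective tissue, network-forming collagens the sheets of basement membranes, and fibril-associated collagens coat the cables. In the testis, collagen is best known from the wall of the seminiferous tubule, where peritubular myoid cells and the basement membrane surround the germ cells. The cells were freed with collagenase and other enzymes and sorted by Hoechst fluorescence before RNA was taken. On a bulk array, fewer cells of a type and less RNA per cell cannot be told apart.

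Sorted cell types were checked against marker lists, as the mean log2 signal of a list on each array. Markers of round spermatids, such as Acrv1 and Tnp2, lay at 11.91 to 12.07 in mutant spermatids and 11.82 to 11.99 in control spermatids. They lay at 8.02 and 10.12 on the mutant spermatocyte arrays 2 and 3, 10.54 on the array left out, and 7.23 to 9.01 in control spermatocytes. Markers of spermatocytes, such as Piwil1, were at 6.26 to 6.41 in mutant spermatids and 6.34 to 6.49 in control spermatids, against 7.59 to 7.72 in mutant and 7.47 to 7.52 in control spermatocytes, although Sycp3 and Hormad1 were not detected on any of the 11 arrays. No probe is named Baz1a in the platform table used here, so the genotypes were not checked on the deleted gene.

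Promoters are printed for the 4 collagen genes that were higher in mutant spermatids and have an entry in the RefSeq promoter table (build GRCm38.p6), and for Col5a1, which had the largest difference between cell types among the 60 tested collagen probes. Each is the 250 bases before the annotated start and the 10 bases after it, 5′ to 3′ on the gene's strand. Capitals mark a full cAMP response element (TGACGTCA, its own reverse complement), the element bound by CREM, an activator of spermatid genes, or a GC box (GGGCGG, or CCGCCC for the other strand), the element of SP1-type factors.
Col24a1, chr3:145292222-145292481, plus strand: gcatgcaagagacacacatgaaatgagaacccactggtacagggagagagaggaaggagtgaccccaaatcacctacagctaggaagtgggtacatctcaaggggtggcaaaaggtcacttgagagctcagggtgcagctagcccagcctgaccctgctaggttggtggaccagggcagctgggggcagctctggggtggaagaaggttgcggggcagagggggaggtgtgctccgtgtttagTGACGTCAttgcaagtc
Col8a1, chr16:57754728-57754987, minus strand: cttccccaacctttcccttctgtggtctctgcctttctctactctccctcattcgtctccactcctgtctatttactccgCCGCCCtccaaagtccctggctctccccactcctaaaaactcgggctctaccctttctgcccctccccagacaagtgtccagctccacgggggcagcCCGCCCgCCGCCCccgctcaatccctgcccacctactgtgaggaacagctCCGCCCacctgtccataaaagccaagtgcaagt
Col27a1, chr4:63215162-63215421, plus strand: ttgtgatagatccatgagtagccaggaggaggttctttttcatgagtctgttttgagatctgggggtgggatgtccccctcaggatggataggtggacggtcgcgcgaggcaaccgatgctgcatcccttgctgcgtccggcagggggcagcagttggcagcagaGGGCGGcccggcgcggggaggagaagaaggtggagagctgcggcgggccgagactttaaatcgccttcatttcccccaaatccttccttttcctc
Col23a1, chr11:51289670-51289929, plus strand: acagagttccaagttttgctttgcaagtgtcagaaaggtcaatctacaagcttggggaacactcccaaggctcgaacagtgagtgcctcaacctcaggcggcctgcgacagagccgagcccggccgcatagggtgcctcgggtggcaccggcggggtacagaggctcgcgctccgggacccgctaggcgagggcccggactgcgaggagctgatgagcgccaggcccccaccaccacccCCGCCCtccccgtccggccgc
Col5a1, chr2:27886175-27886434, plus strand: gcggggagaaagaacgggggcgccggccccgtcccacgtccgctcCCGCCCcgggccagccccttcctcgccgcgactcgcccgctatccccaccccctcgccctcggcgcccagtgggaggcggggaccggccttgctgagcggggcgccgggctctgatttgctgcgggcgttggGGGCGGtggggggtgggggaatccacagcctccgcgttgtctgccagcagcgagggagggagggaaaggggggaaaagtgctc

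The table held 36 such windows for 33 of the 41 collagen genes. A GC box, searched on both strands, was found in 22 of the 36 windows (61.1%) and in 33.4% of all 32851 promoter windows, and the median GC content was 59.2% against 52.3%. The cAMP response element was found in 1 of the 36 windows (2.78%) and in 1.67% of all windows. That window was Col24a1, where the element begins 7 bases before the annotated start and runs over it. A CCAAT box (CCAAT, or ATTGG) was found in 36.1% of the collagen windows and 34.6% of all windows, and a TATA box (TATAAA, or TTTATA) in 13.9% and 12.7%. Among the promoters shown, Col8a1, Col27a1, Col23a1 and Col5a1 hold 1 to 4 GC boxes each and Col24a1 holds none. Such matches describe letters and do not show that a factor binds.

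Most collagen probes were dim in germ cells. The array software gives each probe a detection p-value against the array's negative controls, and a probe was taken as detected on an array where this was under 0.05. Of the 91 collagen probes, 31 were detected on none of the 11 arrays, 22 on only 1 to 3 and 12 on all 11. Every probe that the platform table names Col1a1, Col4a5, Col6a6, Col8a2, Col10a1 or Col13a1 was undetected on the 11 arrays. The array left out detected none of the 31 either. A probe unnamed in that table but listed as Col6a6 with the study was detected in spermatids and is described at the end. The 60 probes detected at least once, from 35 genes, were among the 28751 probes tested. Arrays of mutant spermatids 1 to 3 detected 34, 39 and 38 collagen probes, against 28, 30 and 32 in control spermatids 1 to 3. Mutant spermatocytes 2 and 3 detected 28 and 31, against 31, 25 and 24 in control spermatocytes 1 to 3. Each mutant spermatid array detected more collagen probes than any control array did, although the shares of all probes detected overlapped, at 36.2 to 41.4% in mutant spermatids and 37.6 to 40.3% in control spermatids.

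**Figure D1:**
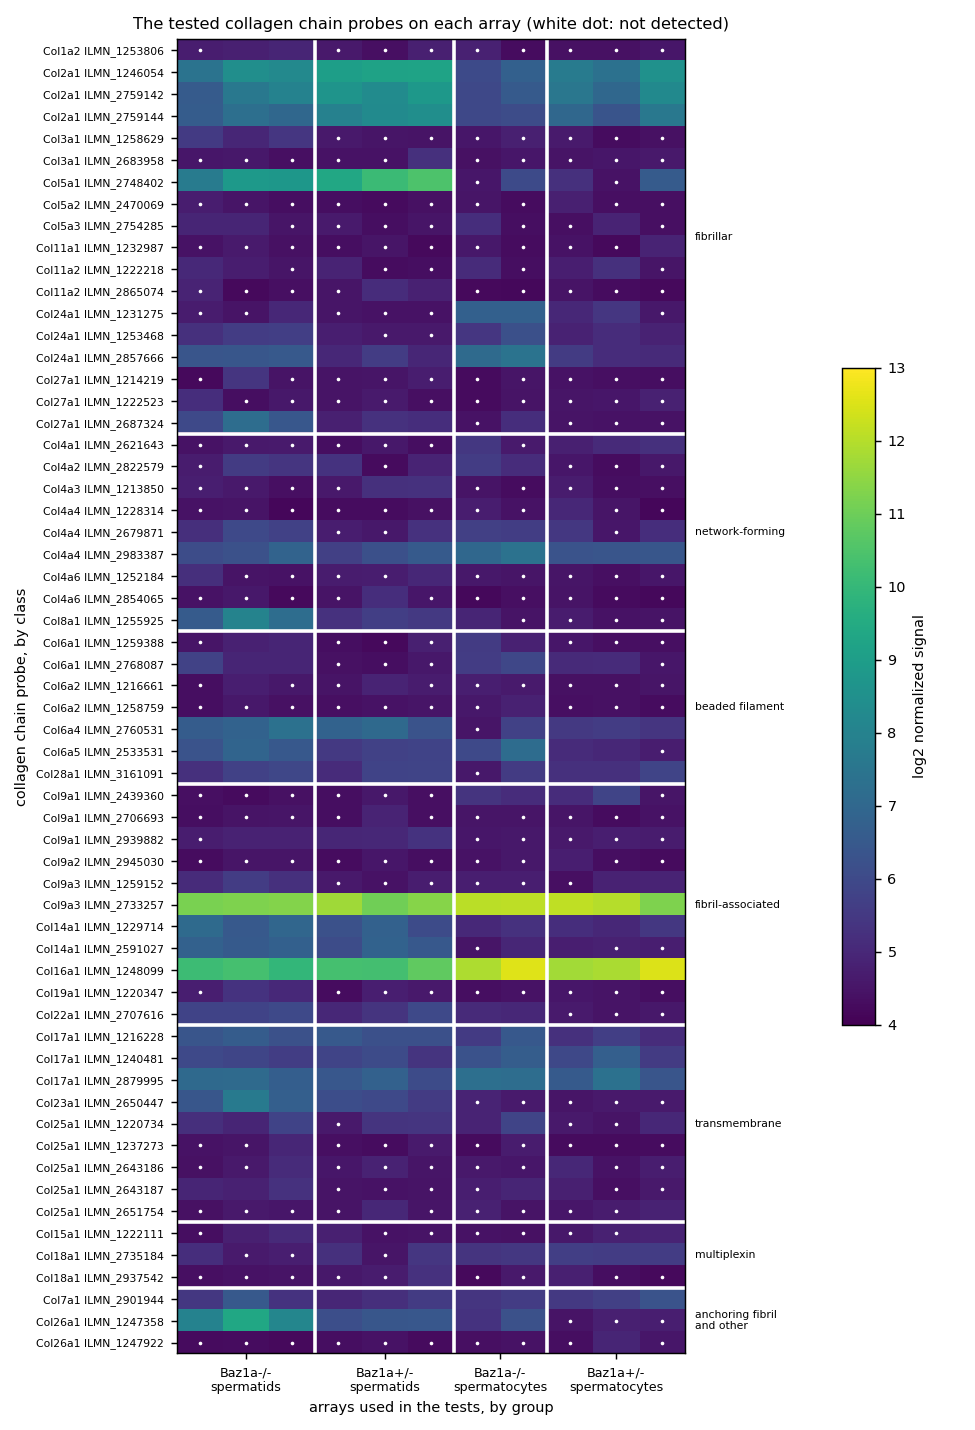
Log2 normalized signal (colour) of the 60 tested collagen probes (rows, grouped by collagen class) on the 11 arrays used in the tests (columns, by group), with a white dot where the probe was not detected. Rows are to be read along the arrays, since signals of different probes are not comparable. Col9a3 ILMN_2733257 and Col16a1 were bright on every array, and most other rows were dim with few detections.

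Col9a3, a fibril-associated collagen, was detected on every array by its probe ILMN_2733257. A probe's brightness also depends on its sequence, so no level is set against that of another probe. ILMN_2733257 read 11.19, 11.26 and 11.34 log2 units in mutant spermatids 1 to 3 and 11.71, 11.06 and 11.38 in control spermatids 1 to 3. In spermatocytes it read 12.07 and 12.11 in mutants 2 and 3, and 12.13, 11.98 and 11.26 in controls 1 to 3. Genotypes overlapped in spermatids, and the mutant minus control difference was -0.08 (SE 0.23, limma adjusted p = 0.905). The other tested Col9a3 probe, ILMN_1259152, was near the detection limit at 5.11, 5.62 and 5.26 in mutant spermatids and undetected at 4.60, 4.43 and 4.74 in control spermatids. The mutant mean was thus at least 1.43-fold higher (fitted difference 0.74, SE 0.20, 95% confidence interval 0.317 to 1.167, limma adjusted p = 0.0361), and the probe was not called. This bound sets the mutant mean against the lowest signal of a detected probe on the control arrays, or the probe's own signal where higher. It allows for the detection limit only and not for the spread between arrays, so it is not a lower confidence limit. The same holds for every later fold given as at least a value, between the groups compared there.

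A probe was called different where the fold was at least 2 and the Benjamini-Hochberg adjusted p of limma's linear model, over all 28751 tested probes, was under 0.05. Differences are on the log2 scale and come from a model that weights arrays, so they can depart slightly from the difference of plain means. Between mutant and control spermatids, 7 of the 60 collagen probes were called (11.67%), from 6 genes, and the share called among all tested probes was 4.09%. Col26a1, Col8a1, Col27a1, Col24a1 and Col23a1 were higher in the mutant, 5 probes where 2.91% of all probes were called higher, and Col2a1 was lower by 2 probes where 1.18% were called lower. The median difference was 0.16 over the collagen probes and -0.03 over all probes, with 39 of the 60 (65%) above 0 against 45.47%. Groups did not overlap in 17 collagen probes (28.33%), 11 higher and 6 lower, against 23.0% of all probes, 10.6% higher and 12.4% lower. Without control spermatid 2 or 3, 4 collagen probes were called, all higher, and without background correction 2 were called.

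**Figure D2:**
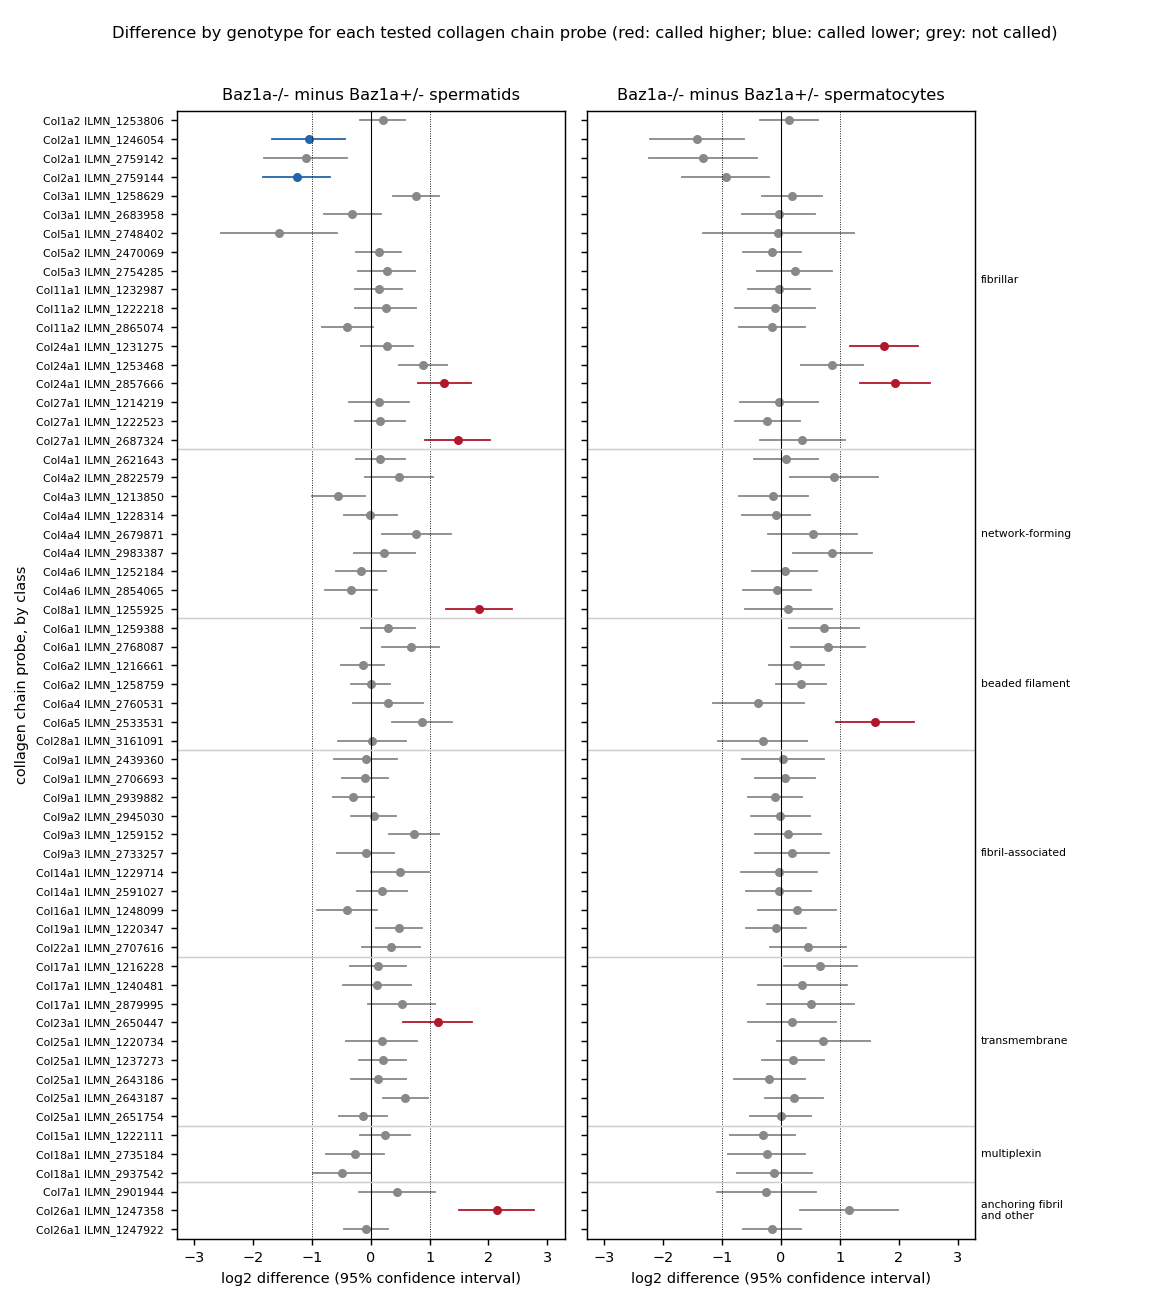
Log2 difference (points) with its 95% confidence interval (bars) for each of the 60 tested collagen probes, for Baz1a-/- minus Baz1a+/- spermatids on the left and spermatocytes on the right, grouped by collagen class. Red and blue mark probes called higher and lower, and dotted lines mark 2-fold. In spermatids 5 probes were called higher and 2 lower; in spermatocytes 3 were called higher.

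Col26a1, which encodes a secreted protein with short collagen stretches first described in mouse testis and ovary, had the largest difference of the 60 tested probes. Its probe ILMN_1247358 read 7.97, 9.35 and 8.12 log2 units in mutant spermatids 1 to 3, against 6.17, 6.40 and 6.43 in control spermatids 1 to 3. Every mutant array lay above every control array, and the difference was 2.14 (SE 0.30, 4.42-fold, limma adjusted p = 0.000645). The second tested probe, ILMN_1247922, was not detected on any spermatid array and differed by -0.08 (SE 0.18), and a further probe was undetected throughout, so 1 of 3 probes carries the call.

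Col8a1 encodes a short-chain, network-forming collagen known from vessel walls and the cornea. Its probe ILMN_1255925 read 6.60, 8.02 and 7.21 in mutant spermatids 1 to 3, against 5.29, 5.65 and 5.49 in control spermatids 1 to 3. The groups did not overlap, and the difference was 1.84 (SE 0.26, 3.57-fold, limma adjusted p = 0.000817). A second Col8a1 probe was undetected on all arrays.

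Col27a1 is a fibrillar collagen known from developing cartilage. Probe ILMN_2687324 read 5.99, 7.21 and 6.45 in mutant spermatids 1 to 3 and 4.78, 5.27 and 5.19 in control spermatids 1 to 3, a difference of 1.48 (SE 0.26, 2.79-fold, limma adjusted p = 0.00314) without overlap. The other probes of this gene, ILMN_1214219 and ILMN_1222523, were detected on 1 mutant array each and on no control array, and differed by 0.14 (SE 0.24) and 0.16 (SE 0.20).

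Col24a1, a fibrillar collagen known from bone and cornea, was read by 3 tested probes. ILMN_2857666 gave 6.36, 6.41 and 6.50 in mutant spermatids 1 to 3 and 5.0, 5.59 and 4.97 in control spermatids 1 to 3. Mutant arrays lay close together and above all controls, with a difference of 1.25 (SE 0.21, 2.38-fold, limma adjusted p = 0.00252). ILMN_1253468 differed by 0.89 (SE 0.19, limma adjusted p = 0.0107), under the 2-fold limit, and ILMN_1231275 by 0.27 (SE 0.20, limma adjusted p = 0.547). All 3 tested probes were on the higher side in the mutant, and 1 of them was called. Of the spermatid arrays, ILMN_1253468 was detected on 1 control array, and ILMN_1231275 on 1 mutant and 0 control arrays. A further probe, ILMN_1247522, was undetected on all 11 arrays.

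Col23a1 encodes a transmembrane collagen. Probe ILMN_2650447 read 6.41, 7.72 and 6.71 in mutant spermatids 1 to 3, against 6.14, 5.99 and 5.55 in control spermatids 1 to 3. The gap between the groups was small beside their spread, although they did not overlap, and the difference was 1.14 (SE 0.27, 2.20-fold, limma adjusted p = 0.0199). Without mutant spermatid 2 or 3, or control spermatid 2 or 3, Col23a1 was no longer called. The other Col23a1 probe, ILMN_1241768, was undetected on all 11 arrays, so 1 of 2 probes carries the call. The called probes of Col26a1, Col8a1, Col27a1 and Col23a1 were all highest in mutant spermatid 2 and lowest in mutant spermatid 1.

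**Figure D3:**
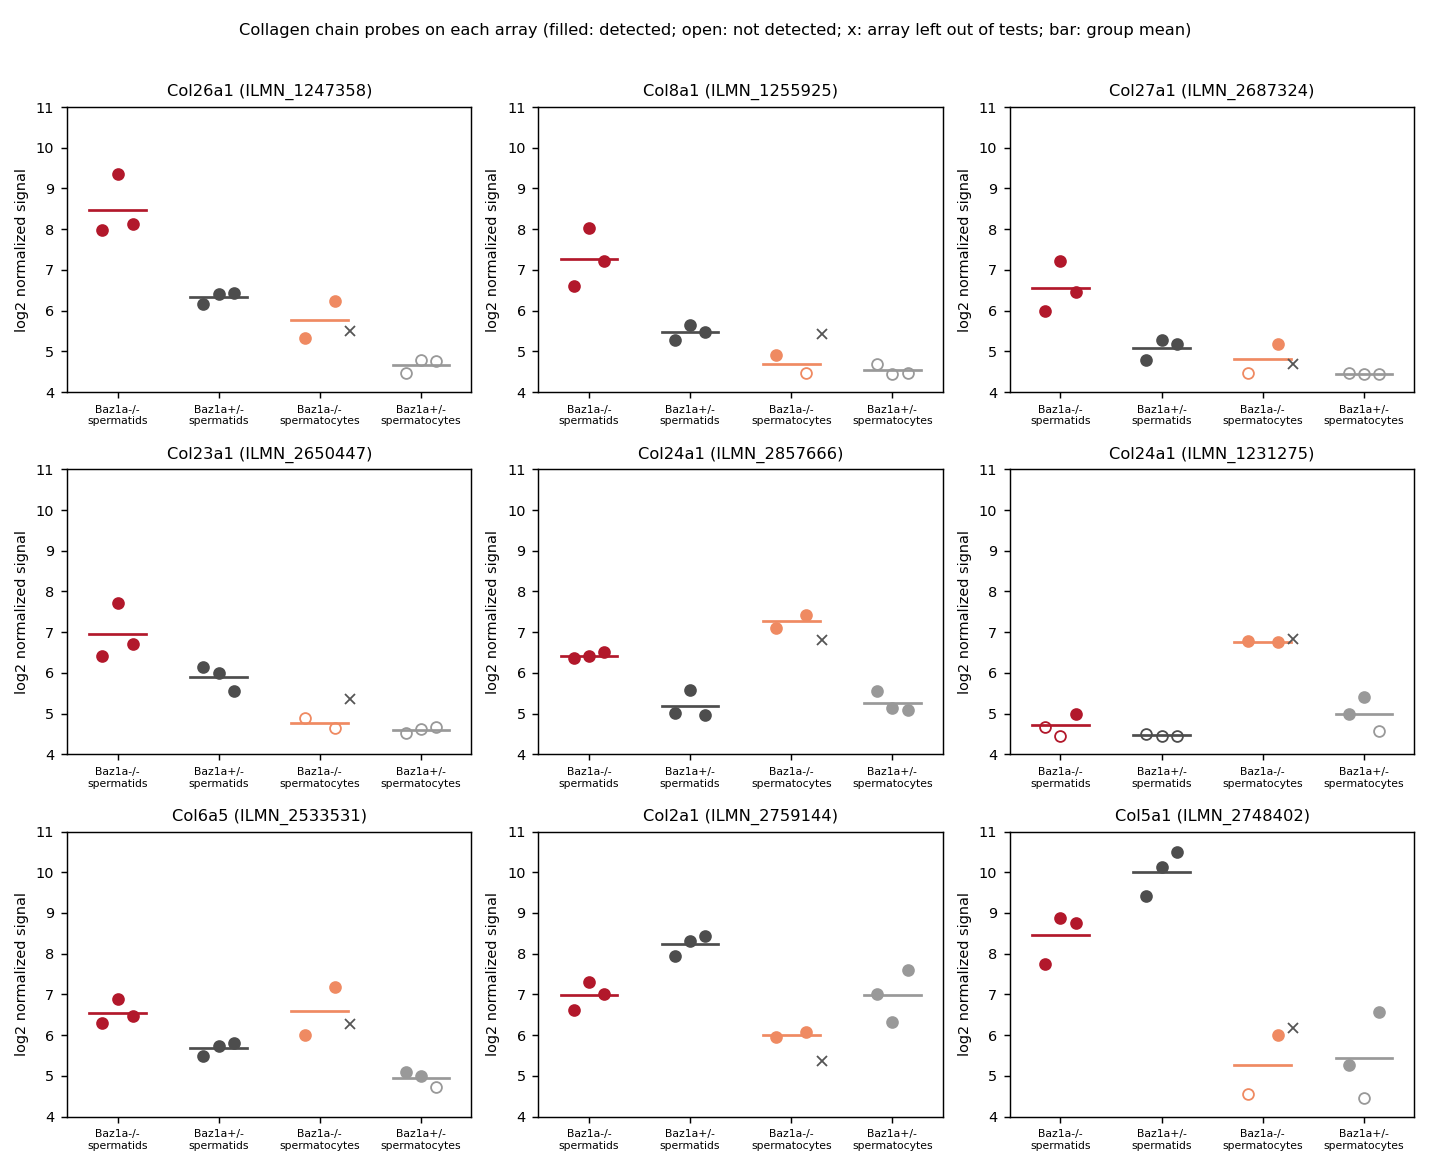
Log2 normalized signal (vertical axis) of 9 collagen probes on each array, in mutant (Baz1a-/-) and control (Baz1a+/-) spermatids and spermatocytes, left to right. Filled points were detected and open points were not, the bar is the group mean, and the cross is the mutant spermatocyte array left out of the tests. Col26a1, Col8a1, Col27a1, Col23a1 and Col24a1 ILMN_2857666 lay higher in mutant than in control spermatids without overlap, and Col2a1 and Col5a1 lay lower. Col24a1 ILMN_1231275 overlapped between spermatid groups. Both Col24a1 probes and Col6a5 lay higher in mutant than in control spermatocytes.

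Col2a1, the main fibrillar collagen of cartilage, moved the other way. Probe ILMN_2759144 read 6.61, 7.30 and 7.01 in mutant spermatids 1 to 3, against 7.94, 8.30 and 8.44 in control spermatids 1 to 3, and fell by 1.26 (SE 0.27, limma adjusted p = 0.0105). Probe ILMN_1246054 read 7.43, 8.45 and 8.24 in mutant spermatids and 9.04, 9.18 and 9.23 in control spermatids, a difference of -1.06 (SE 0.29, limma adjusted p = 0.0388). The third probe, ILMN_2759142, read 6.58, 7.62 and 8.0 in mutant spermatids and 8.68, 8.34 and 8.80 in control spermatids, a difference of -1.11 (SE 0.33, limma adjusted p = 0.0584) that missed the threshold. All 3 Col2a1 probes were below every control array on every mutant array. The call of ILMN_1246054 was lost without any 1 of the 6 spermatid arrays, and that of ILMN_2759144 without control spermatid 2 or 3.

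Col5a1, which encodes a fibrillar chain that sets the width of type I collagen cables, had a larger difference that missed the threshold. Its probe ILMN_2748402 read 7.75, 8.89 and 8.75 in mutant spermatids 1 to 3, against 9.41, 10.13 and 10.50 in control spermatids 1 to 3. The groups did not overlap, and the difference was -1.56 (SE 0.46, 95% confidence interval -2.54 to -0.57, limma adjusted p = 0.0567).

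By class, mutant spermatids had called probes among fibrillar collagens (2 genes higher and 1 lower of 10 tested), network-forming collagens (1 higher of 6), transmembrane collagens (1 higher of 3) and the class of anchoring fibril and other collagens (1 higher of 2). None was called among the beaded-filament (5 genes tested), fibril-associated (7) or multiplexin collagens (2). Beside the 2.91% of all probes called higher and 1.18% called lower, counts of 1 or 2 genes in classes this small do not set a class apart. Col1a2, Col3a1, Col4a1, Col4a2 and Col18a1, the fibril and basement membrane chains most known from the tubule wall, had no called probe. Col3a1 ILMN_1258629 read 5.54, 4.95 and 5.42 in mutant spermatids 1 to 3 and was undetected at 4.62, 4.51 and 4.47 in control spermatids 1 to 3, at least 1.41-fold higher, with a fitted difference of 0.77 (SE 0.18, limma adjusted p = 0.0204). The second Col3a1 probe, ILMN_2683958, differed by -0.31 (SE 0.22). Col1a2 was detected on 2 mutant and 0 control spermatid arrays and differed by 0.20 (SE 0.18), and Col4a1 was detected on no spermatid array. Col4a2 differed by 0.48 (SE 0.27) and the Col18a1 probes by -0.27 (SE 0.23) and -0.49 (SE 0.23), none past an adjusted p of 0.05.

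Marker lists of 4 other testis cell types had higher mean signals in mutant spermatids without overlap, through few called genes each, and 3 further lists overlapped or were undetected. Among all probes, 2.91% were called higher. For 13 markers of peritubular myoid cells or fibroblasts, the mean log2 signal was 5.67 to 5.69 in mutant spermatids and 5.01 to 5.14 in control spermatids. Igfbp7 and Lum were called higher, and Pdgfra, Pdgfrb and Postn were undetected on all 11 arrays. The myoid markers Myh11, Cnn1, Tagln and Des were detected on no mutant spermatid array. They averaged 4.48, 4.41, 4.39 and 4.46 there, below 4.86, 4.75, 4.60 and 4.60 in control spermatids. Acta2, Dcn and Vim, also uncalled, averaged 7.43, 6.35 and 5.23 in mutant spermatids, above 6.89, 5.22 and 4.42 in control spermatids. The 1 other tested probe of Igfbp7 was not called. For 11 endothelial markers the mean was 5.47 to 5.80 against 4.95 to 5.22, with Cldn5 and Egfl7 called higher and Kdr and Esam undetected. The 2 other tested probes of Egfl7 were not called. Macrophage markers (9 genes) were at 5.46 to 5.59 in mutant and 5.07 to 5.08 in control spermatids, with Cd14 called and Ptprc undetected. Leydig cell markers (6 genes) were at 5.64 to 6.43 in mutant and 5.03 to 5.63 in control spermatids, with Cyp11a1 and Cyp17a1 called and Star, Hsd3b1 and Hsd3b6 undetected. Sertoli cell markers (8 genes) overlapped, at 4.91 to 5.22 in mutant and 4.80 to 5.07 in control spermatids, with Sox9 called and Amh, Fshr, Gata4 and Ctsl undetected. Spermatogonial markers (7 genes) were at 4.83 to 5.02 in mutant and 4.87 to 5.0 in control spermatids with none called, and red blood cell markers (3 genes) were undetected on all 11 arrays. In every list most tested genes were not called except for Leydig cells, with 2 of 3 called, and the part of these markers in the collagen differences was not tested.

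Between mutant and control spermatocytes, 3 of the 60 collagen probes were called (5%), all higher in the mutant and from 2 genes, where 0.410% of all probes were called, 0.261% higher and 0.150% lower. Col24a1 ILMN_2857666 read 7.11 and 7.43 in mutant spermatocytes 2 and 3, against 5.55, 5.13 and 5.08 in control spermatocytes 1 to 3, a difference of 1.94 (SE 0.27, 3.84-fold, limma adjusted p = 0.00694). Col24a1 ILMN_1231275 read 6.77 and 6.76 in mutant spermatocytes, against 4.99, 5.42 and an undetected 4.57 in control spermatocytes, a difference of 1.75 (SE 0.27, 3.36-fold, limma adjusted p = 0.0109). On the array left out, these probes read 6.80 and 6.84, also above every control array. ILMN_1253468 differed by 0.87 (SE 0.25, limma adjusted p = 0.289). Col24a1 was the collagen gene called higher in the mutant in both cell types.

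Col6a5, a chain of beaded filaments, read 6.00 and 7.17 in mutant spermatocytes 2 and 3, against 5.10, 5.01 and an undetected 4.73 in control spermatocytes 1 to 3. Its difference was 1.59 (SE 0.31, 3.02-fold, limma adjusted p = 0.0440), and the call was lost in 18 of 23 alternatives. In spermatids Col6a5 differed by 0.87 (SE 0.24, limma adjusted p = 0.0403), short of 2-fold. The Col2a1 probes ILMN_1246054, ILMN_2759142 and ILMN_2759144 differed by -1.43 (SE 0.37), -1.32 (SE 0.43) and -0.94 (SE 0.35) in spermatocytes. Their mutant arrays lay below all control arrays as in spermatids, but their limma adjusted p-values of 0.202, 0.450 and 0.613 missed the threshold. Groups did not overlap in 21 collagen probes (35%), 13 higher and 8 lower, against 20.3% of all probes, 8.59% higher and 11.7% lower. Some of the 21 were detected on no array of either spermatocyte group, such as Col6a2 ILMN_1216661 on the higher side and Col27a1 ILMN_1222523 on the lower side.

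With 2 mutant arrays, the spermatocyte calls rest on the spread shared across the groups. In a limma fit of the spermatocyte arrays alone, 0 collagen probes and 4 probes in all were called. Without control spermatocyte 1, 1 collagen probe was called, and without mutant spermatocyte 2, 5 were. All 3 calls were lost without background correction. Markers of round spermatids differed between the mutant arrays, as given above. Other lists also differed by genotype. Endothelial markers lay at 5.08 to 5.09 in mutant and 4.69 to 4.78 in control spermatocytes. Of them Cldn5 was called higher (difference 3.115, limma adjusted p = 7.52e-05). Myoid and fibroblast markers lay at 5.11 to 5.15 against 4.78 to 4.88, and macrophage markers at 4.75 to 4.96 against 4.65 to 4.71. Spermatogonial markers were lower in the mutant without overlap, and Leydig and Sertoli cell markers overlapped. The part of these markers in the differences was not tested.

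The mutant effect was then compared between the cell types. For this difference limma called 0 of 60 collagen probes, with 3 at an unadjusted p under 0.05, where 0.153% of all probes were called. The smallest adjusted p was 0.136, for Col24a1 ILMN_1231275, whose mutant effect was 1.48 log2 units smaller in spermatids than in spermatocytes (difference -1.48, SE 0.34). That probe was detected on 1 of 3 mutant and 0 of 3 control spermatid arrays, so its effect in spermatids sits at the detection limit. The next smallest was for Col8a1, with a mutant effect of 1.84 in spermatids, a fitted effect of 0.12 in spermatocytes and a difference of 1.72 (SE 0.43, limma adjusted p = 0.188). For Col27a1 ILMN_2687324 the effects were 1.48 and a fitted 0.36 (difference 1.12, SE 0.42, limma adjusted p = 0.538). In spermatocytes these Col8a1 and Col27a1 probes were detected on 1 of 2 mutant and 0 of 3 control arrays, so their effects there sit at the detection limit. The calls in spermatids are therefore not shown to be absent from spermatocytes.

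Spermatids differed from spermatocytes in 10 collagen genes in mutant mice and 7 in control mice. In mutant mice, 12 of the 60 probes (20%) were called, 10 higher and 2 lower in spermatids, where 31.5% of all probes were called, 14.9% higher and 16.6% lower. In control mice, 10 (16.67%) were called, 9 higher and 1 lower, where 28.4% of all probes were called, 13.1% higher and 15.3% lower. Cell types did not overlap in 28 collagen probes in mutants, 17 higher and 11 lower, against 58.2% of all probes, 26.5% higher and 31.7% lower. In controls they did not overlap in 25, 20 higher and 5 lower, against 51.4% of all probes, 22.4% higher and 29.1% lower. These comparisons share their spermatid and spermatocyte arrays with the genotype comparisons, so their values are given side by side. Markers of round spermatids lay at 8.02 and 10.12 on mutant spermatocyte arrays 2 and 3 and at 7.23 to 9.01 in control spermatocytes. Their part in the differences between cell types was not tested. Without background correction, 5 collagen probes were called in mutants and 3 in controls.

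Col5a1 had the largest rise of the 60 tested probes in both genotypes. It read 7.75, 8.89 and 8.75 in mutant spermatids and 4.55 (undetected) and 6.01 in mutant spermatocytes, a difference of 3.27 (SE 0.61, 9.64-fold, limma adjusted p = 0.000690). In control mice it read 9.41, 10.13 and 10.50 in spermatids and 5.26, 4.45 (undetected) and 6.58 in spermatocytes, a difference of 4.78 (SE 0.43, 27.5-fold, limma adjusted p = 7.23e-07). Both genotypes showed the rise without overlap of cell types, and the difference between the rises was -1.51 (SE 0.75, limma adjusted p = 0.745).

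Col26a1 ILMN_1247358 was higher in spermatids by 2.72 (SE 0.40, limma adjusted p = 9.68e-05) in mutants, whose spermatocytes 2 and 3 read 5.33 and 6.23, both detected. In controls its fitted rise was 1.74 (SE 0.28, limma adjusted p = 0.000138), and control spermatocytes had it undetected at 4.46, 4.78 and 4.76, so that the rise was at least 2.87-fold. Col23a1 was undetected in all spermatocytes used, at 4.88 and 4.65 in mutants and 4.53, 4.61 and 4.67 in controls. Its rise was at least 4.31-fold in mutants and at least 2.11-fold in controls.

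Col14a1, a fibril-associated collagen, was higher in spermatids by both of its probes. ILMN_2591027 differed by 1.95 (SE 0.27) in mutants and 1.71 (SE 0.19) in controls, and ILMN_1229714 by 1.69 (SE 0.31) and 1.16 (SE 0.22), with limma adjusted p-values of 0.000549 or less for each. Col6a4, a beaded-filament chain, was higher by 1.87 (SE 0.37, limma adjusted p = 0.00107) in mutants and by 1.19 (SE 0.26, limma adjusted p = 0.00173) in controls. Col2a1 was higher by 1.73 (SE 0.38), 1.27 (SE 0.44) and 1.0 (SE 0.36) in mutants, for ILMN_1246054, ILMN_2759142 and ILMN_2759144, and by 1.36 (SE 0.27), 1.05 (SE 0.31) and 1.32 (SE 0.25) in controls. All of these passed but the last probe in mutants, at a fold of 1.9996. With mouse as a block, ILMN_2759142 in controls fell under 2-fold, at 0.98 on the log2 scale.

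Col16a1, a fibril-associated collagen, was lower in spermatids. It read 10.17, 10.34 and 9.95 in mutant spermatids 1 to 3 and 11.90 and 12.55 in mutant spermatocytes 2 and 3, a difference of -2.08 (SE 0.32, limma adjusted p = 0.000134). In control mice it read 10.36, 10.32 and 10.81 in spermatids and 11.75, 11.85 and 12.53 in spermatocytes, a difference of -1.41 (SE 0.22, limma adjusted p = 0.000115). It was bright on every array and the cell types did not overlap in either genotype. Col24a1 ILMN_1231275 was lower in mutant spermatids than in mutant spermatocytes by 2.04 log2 units (difference -2.04, SE 0.27, limma adjusted p = 5.19e-05). Mutant spermatids detected it on 1 of 3 arrays, so the size of this fall is limited by detection. In controls it differed by -0.56 (SE 0.19) and its spermatid signal was undetected on all 3 arrays. Col8a1 and Col27a1 ILMN_2687324 were called between cell types in mutants, at 2.64 (SE 0.35) and 1.77 (SE 0.35). In controls both were undetected in spermatocytes and were not called, with rises of at least 1.58-fold and 1.2-fold.

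**Figure D4:**
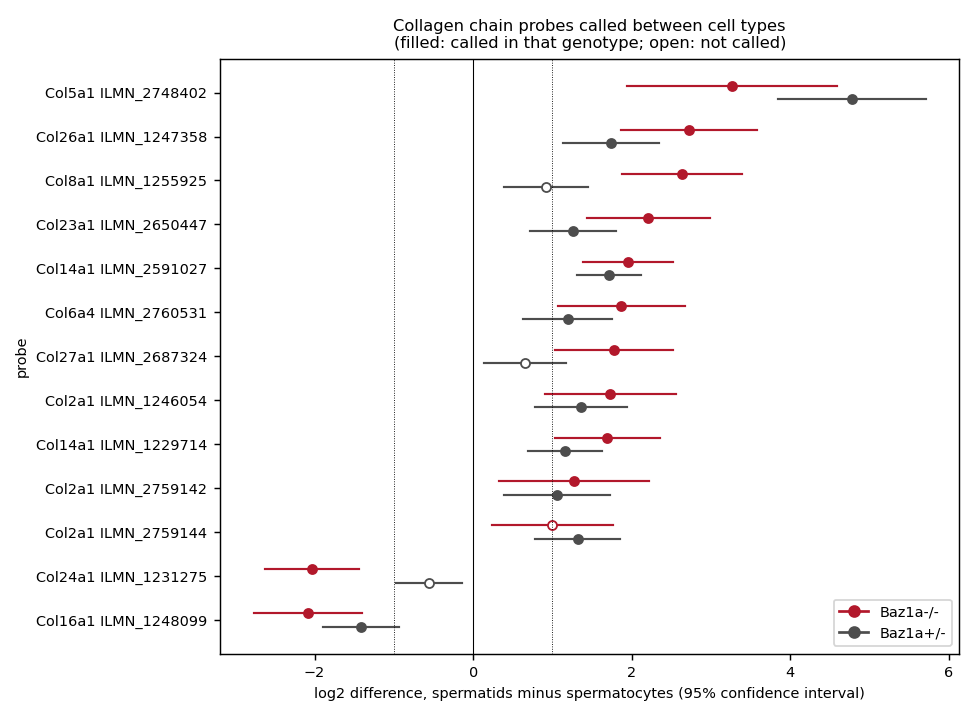
Log2 difference of spermatids minus spermatocytes (points) with its 95% confidence interval (bars) for the 13 collagen probes called in either genotype, in Baz1a-/- (red) and Baz1a+/- mice (grey). Filled points were called in that genotype. Of these probes Col5a1 had the largest rise in both, 3.27 and 4.78, and Col16a1 was lower in spermatids in both.

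Genes that make, carry and bind collagen were read from lists chosen by function. Of 13 tested genes (19 probes) that fold and modify collagen chains, mutant spermatids had 1 called higher and 2 lower. Of all probes, 2.91% were called higher and 1.18% lower, the shares to set beside the lists that follow as well. The lists count a gene where any of its probes was called, whereas these shares count probes. Serpinh1, the collagen chaperone HSP47, averaged 7.07 ± 1.09 (SD, n = 3) log2 units by 1 of its 2 tested probes in mutant spermatids and 4.88 ± 0.17 (SD, n = 3) in control spermatids, a difference of 2.16 (SE 0.37, limma adjusted p = 0.00278). Crtap, a partner of the prolyl 3-hydroxylase complex of fibrillar chains, averaged 5.23 ± 0.32 (SD, n = 3) by ILMN_1223997 in mutant spermatids and 7.31 ± 0.03 (SD, n = 3) in control spermatids. It fell by 2.08 (SE 0.17, limma adjusted p = 1.17e-05) there and by 1.72 (SE 0.23, limma adjusted p = 0.00481) in mutant spermatocytes. The other tested Crtap probe, ILMN_2877541, was called lower in mutant spermatids but was not called in spermatocytes. There it averaged 5.26 in mutants and 6.53 in controls. Plod3, a lysyl hydroxylase, fell by 1.09 (SE 0.26, limma adjusted p = 0.0215), and its 1 other tested probe was not called. The median difference of the list's probes in spermatids was -0.07, near that of all probes, so its genes did not share a direction.

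Of 12 tested genes for export, cleavage and cross-linking, Sec23a of the vesicle coat was higher by 1.15 (SE 0.30, limma adjusted p = 0.0306) in mutant spermatids. Pcolce2, an enhancer of procollagen cleavage, fell by 1.05 (SE 0.16, limma adjusted p = 0.00134), and its 1 other tested probe was not called. Of 10 tested genes for breakdown and its inhibitors, the inhibitor Timp4 was higher by 1.97 (SE 0.30, limma adjusted p = 0.00124). Of 16 matrix partners, Lum, which encodes the fibril-binding proteoglycan lumican and also stands among the fibroblast markers, was higher by 2.98 (SE 0.25, limma adjusted p = 1.17e-05), and 0 of 8 tested collagen receptors were called by limma. In spermatocytes, Hspg2, which encodes the basement membrane proteoglycan perlecan, fell by 1.36 (SE 0.22, limma adjusted p = 0.0160), and its 1 other tested probe was not called. Hspg2 and Crtap were the 2 genes called over these lists, where 0.410% of all probes were called.

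Between cell types, 3 of the 8 tested receptor genes, read by 12 tested probes, were called higher in spermatids of each genotype and 0 lower by limma. Of all probes, 14.9% were called higher and 16.6% lower in mutants, and 13.1% and 15.3% in controls. A share of genes is not on the same scale as a share of probes. Itga1, the alpha chain of a collagen-binding integrin, was higher by 3.17 (SE 0.37, limma adjusted p = 1.86e-05) in mutants and by 2.78 (SE 0.26, limma adjusted p = 1.02e-06) in controls. The 1 other tested probe of Itga1 was not called in either genotype. P4ha2, a prolyl 4-hydroxylase subunit, averaged 6.83 in mutant spermatids and was undetected in both mutant spermatocyte arrays (limma adjusted p = 1.30e-05), and was higher in spermatids by 2.94 (SE 0.18, limma adjusted p = 3.96e-08) in controls. Its partner subunit P4hb fell by 3.02 (SE 0.32, limma adjusted p = 8.51e-06) in mutants and by 2.41 (SE 0.22, limma adjusted p = 8.52e-07) in controls, so the subunits of this enzyme differed in opposite directions.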

How the data were processed

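RNA from 12 sorted cell samples was hybridized to Illumina MouseWG-6 v2.0 BeadChips, 1 array per sample. The authors deposited the linear bead intensity of each probe, summarized but not normalized in Illumina software (GenomeStudio 2011.1 per the submitters' processing notes), and a detection p-value per probe and array. The authors also deposited log2 values, made with limma 3.12.1 by normexp background correction and quantile normalization.

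Here the intensities were corrected by normexp with an offset of 16, with negative controls inferred from the detection p-values, followed by quantile normalization over the 12 arrays in limma 3.58.1 under R 4.3.3. The result differed from the deposited log2 values by at most 0.0244. The offset keeps dim probes near 4 to 5 log2 units and understates their folds. Probes detected (p under 0.05) on at least 1 of 11 arrays were fitted as 4 groups with array weights, and p-values were adjusted by Benjamini-Hochberg over all 28751 tested probes in each of 5 comparisons. The fit has 13.2 moderated degrees of freedom, and the small number of arrays limits its precision. The model fit and the calling rule were run on simulated log2 values with known changes. The background correction, normalization and detection filter were not part of that simulation. Gene names are those of the platform table: 34885 probes have 1 symbol, 18 have several and 10378 have none.

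The collagen genes, their classes and the other lists were chosen with earlier results of these data known. Genes were named by a rule: every collagen gene with a called probe, Col1a1, Col1a2, Col3a1, Col4a1, Col4a2 and Col18a1, the 3 brightest collagen probes of each group, and genes of the other lists with a called probe between spermatid groups. Genes of these lists named in spermatocytes or between cell types were chosen after their values were seen, and so was the promoter window, which runs 10 bases past the start. Equal replicate numbers mark 1 mouse in both cell types by the labels. The deviations of such arrays from their group means correlated at -0.0423 to 0.227. Which control and mutant mice were littermates is not given in the sources used here, nor are chip or scan batches. Alternatives were other background corrections, scalings, detection filters, folds, weights and samples, a replicate block, and leaving out each array.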

Additional observations from a re-analysis of the deposited data

How the results depend on the processing

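Between mutant and control spermatids, the 7 calls became 4 (3 of them shared) with an offset of 50 and 2 (1 shared) without background correction, 11 at 1.5-fold, and 4 to 9 when 1 array was left out. Between spermatocyte groups, the 3 calls became 0 without background correction, 0 in a fit of those groups only, 7 with the left-out array in the fit (4 higher and 3 lower), and 1 to 5 when 1 array was left out. Leaving out a mutant spermatocyte array leaves 1, which is assumed to vary like the other groups. Between cell types, the 12 calls in mutants became 5 without background correction and 11 to 14 when 1 array was left out. The 10 calls in controls became 5 with an offset of 50, 3 without background correction, 16 at 1.5-fold and 9 to 12 when 1 array was left out. For the difference of mutant effects, the count of 0 became 1 with the left-out array and stayed 0 when any 1 array was left out.

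Col26a1 kept its call between spermatid groups in 23 of 23 alternatives, Col8a1 in 22, and Col24a1 ILMN_2857666 and Col27a1 ILMN_2687324 in 21 each. Col2a1 ILMN_2759144 kept it in 20, Col23a1 in 14 and Col2a1 ILMN_1246054 in 11. Col3a1 ILMN_2683958, uncalled at -0.31, ranged over -0.381 to 0.027 in its 22 alternatives and turned positive in 1 of them, without control spermatid 3 (limma adjusted p = 0.975). Median scaling moved the median difference of all probes to -0.16 between spermatocyte groups, -0.10 between cell types of controls and 0.17 for the difference of mutant effects. It moved the share of all called spermatocyte probes that were higher to 28.3% of 187, against 63.6% of 118 with quantile normalization, while 2 collagen probes were called, both higher. With the replicate number as a block, 8 collagen probes were called between spermatid groups (4 higher and 4 lower, 6 shared) and 3 between spermatocyte groups (2 shared). Equal numbers of different genotypes mark no known pairing, and the deviations of such pairs correlated at 0.0744 to 0.537. With mouse as a block between cell types, 13 probes were called in mutants (12 shared) and 10 in controls (9 shared), where Col2a1 ILMN_2759142 lost its call, and 0 for the difference of mutant effects. The causes of these changes were not tested.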

Other observations

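Beside the 91 probes named in the platform table, 2 probes without a name there carry collagen names in the gene list that accompanies the study, which was chosen on these samples, so their direction is not independent evidence. They were looked up after values had been seen. The probe listed as Col6a6, ILMN_1230642, read 8.57, 8.43 and 8.57 log2 units in mutant spermatids 1 to 3, against 5.15, 5.05 and 5.29 in control spermatids 1 to 3, a difference of 3.34 (SE 0.21, limma adjusted p = 1.15e-06). It was larger than any difference of the 60 tested collagen probes between spermatid groups. In spermatocytes it read 4.50 and 5.74 in mutants 2 and 3 and 4.30, 4.38 and 4.41 in controls 1 to 3, and it read 6.35 on the mutant array left out. Of the spermatocyte arrays used in the tests, 1 mutant and 0 control arrays detected it. It was higher in spermatids than in spermatocytes by 3.4 (SE 0.29, limma adjusted p = 2.52e-06) in mutants, above the 3.27 of Col5a1, and by at least 1.28-fold in controls, where it was not called. The Col6a6 probe of the platform table was undetected on all 11 arrays, and the name of ILMN_1230642 was not checked on sequence here.

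The probe listed as Col12a1, ILMN_1224404, a fibril-associated collagen, read 6.48, 7.67 and 7.42 in mutant spermatids and 4.87 and 5.19 in mutant spermatocytes, a difference of 2.23 (SE 0.32, limma adjusted p = 7.52e-05). Only 1 of these mutant spermatocyte arrays detected it. In control mice it read 7.04, 7.20 and 7.34 in spermatids and was undetected at 4.65, 4.39 and 4.60 in spermatocytes, at least 5.21-fold higher in spermatids. Between mutant and control spermatids it differed by 0.05 (SE 0.24).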
